A study of Mus musculus with 8 samples.

Results

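The genes described here encode the proteins of the mitochondrial ribosome, taken as the gene symbols that begin with Mrpl (large subunit) or Mrps (small subunit) followed by a digit. Of 80 such symbols in the liver count table, 77 reached a mean of 10 counts over the 8 libraries, 48 of the large and 29 of the small subunit, among 19267 genes in all. The 3 symbols left out were the pseudogenes Mrpl27-ps, Mrpl23-ps1 and Mrpl48-ps, whose mean counts were 3.88, 3 and 1.25, and the lowest members above the minimum were Mrps6 with a mean of 36.1 counts and Mrps18c with 43.5. All 77 members passed the filter on low counts and were tested with 13993 genes in all. RNA came from livers of male C57BL/6 mice aged 9 weeks, in 4 groups of 2 libraries that crossed genotype with diet. Elf4-/- mice carried loxP-flanked Elf4 and Cre recombinase under the Villin promoter, which acts in intestinal epithelium, so that the liver itself was not the target of the deletion; WT mice were the Cre controls. From 6 weeks of age the mice were pair-fed a Lieber-DeCarli liquid diet for 21 days. The EtOH diet held alcohol at 5% (w/v), and the Control diet held maltose dextrin of the same calories. The labels did not say whether a library came from a single mouse or from pooled mice, so the p-values below measure only the spread between these libraries.

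Mitochondria carry their own ribosomes, which translate the few proteins encoded by the mitochondrial genome, all of them subunits of the respiratory chain and ATP synthase. The ribosomal RNAs are transcribed inside the organelle, whereas every ribosomal protein is encoded in the nucleus, made in the cytosol and imported. Part of these proteins have bacterial counterparts and part are specific to mitochondria, and in liver, an organ rich in mitochondria, they belong to the constantly expressed genes of energy metabolism.

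Total counts ran from 6171051 to 9157362 per library, and the members together held 0.187% to 0.308% of them. The share of counts from the mitochondrial genome was 33.7% and 23.4% for the WT-Control libraries, 12.5% and 10.8% for WT-EtOH, and 18.3% to 22.1% for the Elf4-/- groups. WT-Control replicate 1 stood apart, with the highest mitochondrial share and the lowest mean level of the members, and the values without it are given below. Counts of Elf4 itself were 6 and 11 (WT-Control), 27 and 36 (WT-EtOH), 12 and 6 (Elf4-/--Control) and 14 and 34 (Elf4-/--EtOH), which for liver is no check of an intestinal deletion. Of the 6 hepatocyte markers, 5 were in the table and were detected in every library. Their summed level was 52895 and 72680 CPM (counts relative to the scaled library size) in WT-Control, 37714 and 32164 CPM in WT-EtOH, 64567 and 71328 CPM in Elf4-/--Control, and 40053 and 53030 CPM in Elf4-/--EtOH, lower under EtOH in both genotypes with no overlap.

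Levels differed widely among the members. Per kilobase of annotated exon, the mean over all libraries ran from 1.23 CPM for Mrpl33 to 129 CPM for Mrpl18, a range of 105-fold, with a median of 11.4 CPM per kilobase for large subunit and 7.23 for small subunit genes. Mrpl18, a protein of the central protuberance with a bacterial counterpart, was followed by Mrps21 at 76.8 and Mrpl14 at 70.1 CPM per kilobase. The lowest after Mrpl33 were Mrpl3 at 2.12 and Mrpl48 at 2.24, and these values depend on long annotated exons (7326 bases in all for Mrpl33). Members lay on 17 chromosomes. Exons of 32 members overlapped an exon of another gene, on the opposite strand for 27 of them. Since no strand setting was given for the counting, reads of such partners cannot be told apart. Of the members called in WT below, this applies to Mrpl12, Mrpl13, Mrpl46, Mrpl47, Mrps18b, Mrps34, Mrpl18 and Mrpl49.

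Promoter windows in RefSeq (GRCm38.p6, 250 bases before to 50 bases after the annotated start) were found for 68 members, 74 windows in all. The letters searched on both strands were GCATGCG, the core bound by nuclear respiratory factor 1 (NRF1), CCGGAAG, the core of sites for the ETS family to which ELF4 belongs, and ATGGCGG, the core of YY1 sites. The ETS letters stood in 33.8% of the members' windows, against 16.6% of the 13173 windows of tested genes and 8.86% of all promoters. The YY1 letters stood in 16.2% against 7.51% and 4.05%, and the NRF1 letters in 10.8% against 6.01% and 3.58%. At least 1 of these motifs was in 48.6% of the members' windows and in 26.6% of those of tested genes, at a GC content of 59.0% and 59.9%. The E-box CACGTG (9.46% against 9.74% of tested windows and 7.15% of all promoters), the cAMP response element TGACGTC (5.41% against 4.94% and 3.21%), AAGGTCA, a site of oestrogen-related receptors (5.41% against 3.46% and 4.72%), CCAAT (39.2% against 37.5% and 37.4%) and TATAAA (6.76% against 7.89% and 13.6%) lay nearer to the background. Among members called in WT, the ETS letters stood in 4 of 10 windows of those called higher and 2 of 5 of those called lower. The YY1 letters stood in 1 and 1 of these windows, and the NRF1 letters in 1 and 0. A link between letters and diet change was not tested. The sequences below are stretches before the start, outside annotated untranslated regions. They come from the 2 members called in WT that held such letters there, and both genes rose with EtOH. Capitals mark the ETS letters in Mrps18a (chr17:46110754-46110985, plus strand) and the NRF1 letters in Mrps18b (chr17:35916599-35916690, minus strand), where matches on the 2 strands overlap in a palindrome.
Mrps18a: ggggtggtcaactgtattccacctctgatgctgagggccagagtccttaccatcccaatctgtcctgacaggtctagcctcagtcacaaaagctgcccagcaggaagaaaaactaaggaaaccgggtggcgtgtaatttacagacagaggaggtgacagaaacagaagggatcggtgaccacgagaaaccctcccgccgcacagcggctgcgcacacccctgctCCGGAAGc
Mrps18b: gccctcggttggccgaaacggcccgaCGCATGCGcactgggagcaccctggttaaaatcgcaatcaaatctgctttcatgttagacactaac

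Under alcohol, mitochondrial ribosomal protein genes of WT liver moved in both directions. EtOH against Control in WT raised 14 of the 77 members and lowered 7 by edgeR's quasi-likelihood test (adjusted p under 0.05). Among all genes tested, 10.8% were called higher and 10.8% lower, so that the members' share was above the background for rises (18.2%) and near it for falls (9.09%). At an unadjusted p under 0.05, 19 members were higher (18.0% of all genes) and 7 lower (18.3%). The members' median log2 fold change was 0.14, beside 0.01 for all genes, and 45 of 77 lay above 0 (50.7% of all genes did). The 2 libraries of one diet did not overlap those of the other for 31 members that were higher (34.1% of all genes) and 16 that were lower (32.7%). In whole tissue, fewer cells of a type and less RNA per cell cannot be told apart. Most of the 21 calls were lost without WT-Control replicate 1, and also without WT-EtOH replicate 1 or WT-EtOH replicate 2. Calls over all genes became fewer in these settings too, and all 21 members kept their sign. Only Mrpl15 and Mrpl46 stayed called whichever library was left out. Without WT-Control replicate 1, the members' median was -0.07, beside 0.02 for all genes, so the lean toward rises was not kept. The plot of ranked changes shows the whole family.

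**Figure D1:**
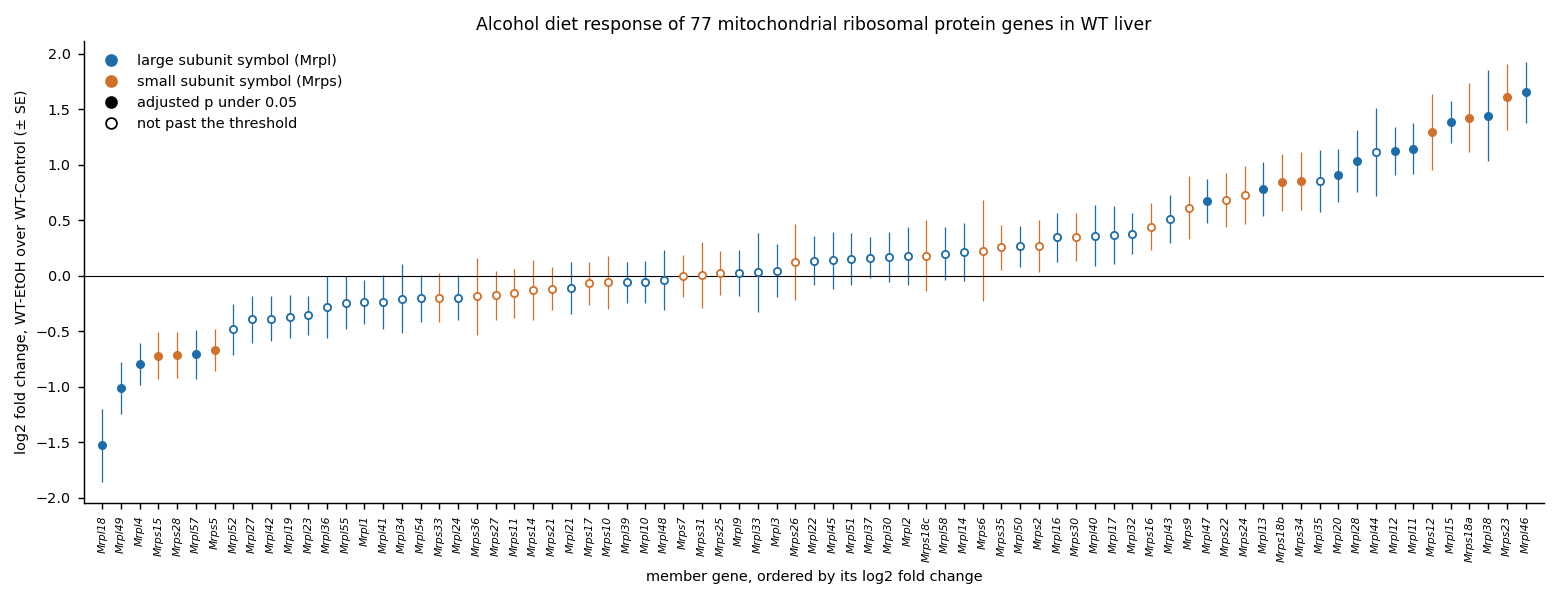
Log2 fold change of each of the 77 members between WT-EtOH and WT-Control (y axis, bars are standard errors from the edgeR fit), ordered by size and coloured by subunit symbol; filled points passed an adjusted p of 0.05. Changes run from -1.53 for Mrpl18 to 1.65 for Mrpl46, and both subunits are spread over the whole range.

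The largest rise was that of Mrpl46, a mitochondria-specific protein of the large subunit. Its level was 4.66 and 6.26 CPM in WT-Control and 15.2 and 19.2 CPM in WT-EtOH, a rise of 1.65 ± 0.28 on the log2 scale (standard error; edgeR adjusted p = 0.00445). Mrpl46 (chr7:78775236-78783531, minus strand) overlaps Mrps11, a small subunit gene on the other strand, by 413 bases, and Mrps11 was at -0.16 ± 0.22 (edgeR adjusted p = 0.629). Mrps23, a mitochondria-specific small subunit protein, rose from 5.03 and 5.89 CPM to 19.0 and 14.6 CPM, a log2 fold change of 1.61 ± 0.30 (edgeR adjusted p = 0.00639). For both genes every EtOH library was above every Control library of the same genotype.

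Mrpl15, the counterpart of a bacterial large subunit protein, had the smallest adjusted p among the members. It rose from 18.8 and 22.8 CPM in WT-Control to 51.5 and 57.4 CPM in WT-EtOH, a log2 fold change of 1.39 ± 0.19 (edgeR adjusted p = 0.00245). Mrpl38, a mitochondria-specific protein of the central protuberance, rose from 59.7 and 79.9 CPM to 142 and 236 CPM, by 1.44 ± 0.41 on the log2 scale (edgeR adjusted p = 0.0326). The 2 WT-EtOH libraries of Mrpl38 differed more from each other than those of the preceding genes. Mrps18a, which despite its symbol sits in the large subunit, rose from 4.47 and 8.28 CPM to 15.2 and 19.1 CPM, by 1.42 ± 0.31 (edgeR adjusted p = 0.0120).

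Genes of the factor-binding side of the ribosome were among the rises. Mrpl11 and Mrpl12 belong to the stalk region that contacts translation factors. Mrpl11 went from 11.0 and 14.0 CPM to 25.4 and 29.8 CPM, a log2 fold change of 1.14 ± 0.23 (edgeR adjusted p = 0.00895). Mrpl12 went from 28.3 and 37.4 CPM to 68.0 and 75.2 CPM, a log2 fold change of 1.12 ± 0.22 (edgeR adjusted p = 0.00779). The other stalk protein, Mrpl10, was at 34.5 and 41.4 CPM against 37.7 and 35.3 CPM, with a log2 fold change of -0.06 ± 0.19 (edgeR adjusted p = 0.852; 0.37 when scaled by library totals), and was not called. Mrps12, a protein of the decoding centre, rose from 3.92 and 7.36 CPM to 13.0 and 14.7 CPM, by 1.29 ± 0.34 (edgeR adjusted p = 0.0258). The other 6 members called higher were Mrpl13, Mrpl20, Mrpl28 and Mrpl47 of the large subunit and Mrps18b and Mrps34 of the small subunit, with log2 fold changes of 0.67 to 1.03.

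The largest fall was that of Mrpl18, the member with the highest level. It was at 317 and 282 CPM in WT-Control and at 112 and 96.3 CPM in WT-EtOH, and it fell by 1.53 ± 0.33 on the log2 scale (edgeR adjusted p = 0.0114). Mrpl18 (chr17:12911349-12916345, minus strand) overlaps exons of Tcp1, a cytosolic chaperonin subunit gene on the other strand, which fell by 0.90 ± 0.26 in the same comparison (edgeR adjusted p = 0.0348). What reads of one gene add to the other was not tested. Mrpl49, a mitochondria-specific large subunit protein, was at 74.4 and 49.3 CPM against 34.1 and 27.4 CPM, and fell by 1.01 ± 0.23 (edgeR adjusted p = 0.0156). Mrpl4, a large subunit protein with a bacterial counterpart near the exit tunnel, was at 42.1 and 49.3 CPM against 29.3 and 23.4 CPM, and fell by 0.79 ± 0.19 (edgeR adjusted p = 0.0182).

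The remaining falls were mostly in small subunit genes. Mrps5, which lines the messenger RNA entry of the small subunit, was at 55.9 and 69.2 CPM in WT-Control and 37.4 and 41.3 CPM in WT-EtOH, and fell by 0.67 ± 0.19 on the log2 scale (edgeR adjusted p = 0.0321). Mrps15 fell by 0.72 ± 0.21 (edgeR adjusted p = 0.0362) and Mrps28 by 0.72 ± 0.21 (edgeR adjusted p = 0.0350). The last was Mrpl57 of the large subunit, at 35.6 and 45.6 CPM against 25.7 and 24.0 CPM, which fell by 0.71 ± 0.22 (edgeR adjusted p = 0.0472). In all 7 the WT-EtOH libraries were below the WT-Control libraries. Of the members with a special role that were not called, Mrps2 was at 0.26, Mrpl58, a peptidyl-tRNA hydrolase built into the large subunit, at 0.20, Mrps30 at 0.34 and Mrps36, now known as a part of the 2-oxoglutarate dehydrogenase complex, at -0.19 on the log2 scale.

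**Figure D2:**
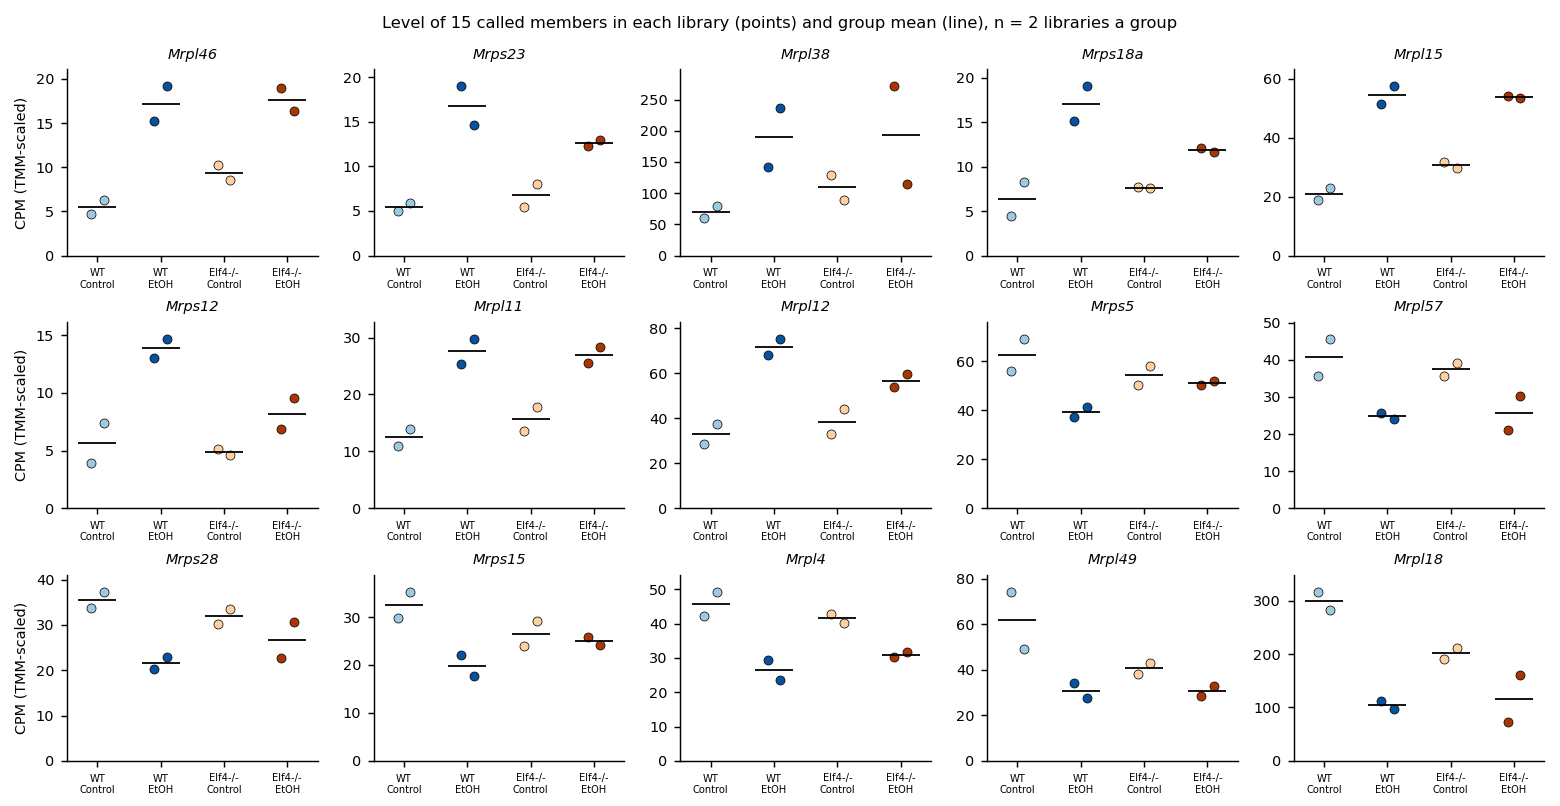
Level in CPM (y axis, from 0) of the 8 members with the largest rise and the 7 members that fell in WT, in each library (points) and as group means (lines), for the 4 groups on the x axis. In all 15 panels the WT-EtOH points are clear of the WT-Control points, whereas Mrpl38 and Mrpl18 show wide gaps between the 2 Elf4-/--EtOH libraries.

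The calls and the median of the members depended on few libraries. Without WT-Control replicate 1 the median was -0.07, beside 0.02 for all genes. It was 0.25 (0.06 for all genes) without WT-Control replicate 2. Without WT-EtOH replicate 1 it was 0.14 (0.0008 for all genes), and without WT-EtOH replicate 2 it was 0.08 (0.01 for all genes). Mrpl15 and Mrpl46 rose by 1.25 and 1.45 on the log2 scale without WT-Control replicate 1. Without WT-Control replicate 1, the log2 fold changes of the rises lost among those described were 0.98 for Mrpl11, 0.94 for Mrpl12, 1.05 for Mrps18a, 0.91 for Mrps12 and 1.24 for Mrpl38 (edgeR adjusted p = 0.0589, 0.0535, 0.0623, 0.130 and 0.170). Mrpl18 then fell by 1.45 and Mrpl49 by 0.68 (edgeR adjusted p = 0.0552 and 0.0989). Scaled by library totals instead of TMM, 27 members were higher and 1 was lower, so that rises made up 96.4% of the members' calls instead of 66.7% (84.4% instead of 50.2% of all calls); that scaling moved the median of all genes by 0.43. Markers of several cell types moved with the diet in WT. Beside the lower hepatocyte markers, 5 of 5 bile duct markers summed to 108 to 144 CPM in WT-Control and 67.3 to 71.6 CPM in WT-EtOH. The summed level of 5 of 5 Kupffer cell markers was 149 to 197 CPM in WT-Control and 498 to 551 CPM in WT-EtOH, that of 5 of 5 stellate cell markers 27.8 to 73.6 against 262 to 347 CPM, and that of 5 of 5 sinusoidal endothelial markers 39.7 to 70.9 against 211 to 252 CPM, with none of these markers at 0 in any library. Their part in the members' changes was not tested.

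In Elf4-/- liver the same diet comparison called 1 member higher and 0 lower with edgeR, where 1.71% of all genes were called higher and 1.18% lower. The member was Mrpl15, at 31.9 and 29.5 CPM in Elf4-/--Control and 54.0 and 53.5 CPM in Elf4-/--EtOH, with a log2 fold change of 0.81 ± 0.18 (edgeR adjusted p = 0.0485). At an unadjusted p under 0.05, 16 members were higher and 2 lower, against 10.9% and 10.3% of all genes. The median was 0.14, 52 of 77 members lay above 0 (50.9% of all genes), and the groups did not overlap for 32 members that were higher (25.8% of all genes) and 9 that were lower (26.3%). DESeq2 and its size factors also gave 1 call, but the count was 0 under the other scalings, with no filter, with the GC and length offset, in the 4 libraries alone and with the replicate block (edgeR adjusted p of Mrpl15 from 0.0503 to 0.128). With 1 library left out in turn, the call depended on which libraries were kept, and the members' median ran from 0.08 to 0.23. Marker levels in Elf4-/--Control and Elf4-/--EtOH were 138 to 139 and 186 to 198 CPM for Kupffer cells, 95.2 to 129 and 209 to 325 CPM for stellate cells, and 103 to 109 and 103 to 169 CPM for sinusoidal endothelium. Bile duct markers were at 182 and 72.0 CPM in Elf4-/--Control and 67.7 and 95.5 CPM in Elf4-/--EtOH, which overlap. The part of these markers was not tested here either.

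The 2 diet comparisons share no library. All 21 members called in WT had the same sign in Elf4-/-, as did 91.7% of the 3025 genes called in WT, and of the 56 other members 31 had the same sign (55.4%, against 67.9% of the 10968 genes not called in WT). The sign of Mrps5 and Mrps15 in Elf4-/- turned without Elf4-/--Control replicate 2 (ranges with 1 library left out -0.18 to 0.019 and -0.23 to 0.064). The 21 members were chosen by their WT values, so their sizes in the 2 genotypes are a description. The median size was 1.01 in WT and 0.57 in Elf4-/- for them, and 1.29 and 0.61 for all genes called in WT. Mrpl46 was at 10.2 and 8.50 CPM in Elf4-/--Control and 19.0 and 16.3 CPM in Elf4-/--EtOH, with a log2 fold change of 0.90 ± 0.26 (edgeR adjusted p = 0.0842). Mrps23 was at 5.43 and 8.06 CPM against 12.3 and 13.0 CPM, with a log2 fold change of 0.92 ± 0.29 (edgeR adjusted p = 0.106). In both, the EtOH libraries were again above the Control libraries. Mrpl18 was at 191 and 211 CPM against 72.5 and 160 CPM, with a log2 fold change of -0.79 ± 0.32 (edgeR adjusted p = 0.197), and its 2 EtOH libraries were far apart. Mrps5, at 50.5 and 58.0 CPM against 50.5 and 51.9 CPM, had a log2 fold change of -0.08 ± 0.19 (edgeR adjusted p = 0.835), and Mrps15 one of -0.09 ± 0.21 (edgeR adjusted p = 0.848).

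**Figure D3:**
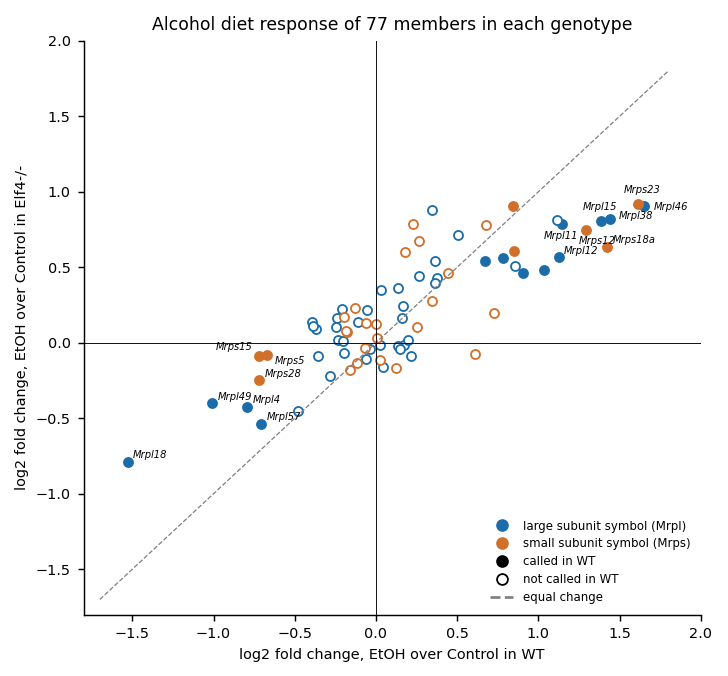
Log2 fold change of EtOH over Control in Elf4-/- (y axis) against that in WT (x axis) for the 77 members, coloured by subunit symbol; filled points were called in WT and the dashed line marks equal change. The 21 filled points lie in the quadrants of equal sign, and 20 of them are nearer to 0 in Elf4-/- than in WT.

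Between genotypes no member was called. Under EtOH, edgeR called 0 members higher and 0 lower in Elf4-/- (0.121% and 0.0214% of all genes), and DESeq2 called none. At an unadjusted p under 0.05 there was 1 member in each direction, where 6.18% and 4.32% of all genes were. The members' median was 0.12, their range -0.75 to 0.50, and 47 lay above 0 (50.1% of all genes); scaled by library totals the median was -0.10. The smallest p was that of Mrpl42, a mitochondria-specific large subunit protein, at 27.8 and 27.5 CPM in WT-EtOH and 42.4 and 35.0 CPM in Elf4-/--EtOH, a log2 difference of 0.48 ± 0.20 (edgeR adjusted p = 0.451). It was followed by Mrps12, at 13.0 and 14.7 against 6.85 and 9.55 CPM (-0.75 ± 0.33, edgeR adjusted p = 0.462), and Mrps24, at 31.6 and 38.4 against 26.6 and 21.2 CPM (-0.55 ± 0.26, edgeR adjusted p = 0.487). Over all members, libraries of the 2 genotypes did not overlap for 22 that were higher (20.0% of all genes) and 10 that were lower (21.4%), these 3 among them.

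Under the Control diet, edgeR again called 0 members higher and 0 lower (0.00715% of all genes in each direction), and DESeq2 called none. At an unadjusted p under 0.05, 2 members were higher and 1 lower, where 4.37% and 2.94% of all genes were. In all, 41 members lay above 0 (51.4% of all genes), and the median was 0.02, or -0.12 without WT-Control replicate 1 and 0.25 when scaled by library totals. Mrpl15 was at 18.8 and 22.8 CPM in WT-Control and 31.9 and 29.5 CPM in Elf4-/--Control (0.56 ± 0.19, edgeR adjusted p = 0.537), Mrpl46 at 4.66 and 6.26 against 10.2 and 8.50 CPM (0.78 ± 0.28, edgeR adjusted p = 0.579), and Mrpl49 at 74.4 and 49.3 against 38.3 and 43.0 CPM (-0.61 ± 0.23, edgeR adjusted p = 0.630). Over all members the libraries did not overlap for 7 that were higher (20.0% of all genes) and 8 that were lower (18.5%), these 3 among them. The interaction of genotype and diet, which tests whether the diet response differed between genotypes, called 0 members higher and 0 lower (0.0% of all genes in each direction) with edgeR and DESeq2. At an unadjusted p under 0.05 there were 0 members, where 4.94% of all genes were higher and 5.15% lower, and 45 members lay above 0 (49.9% of all genes). The smallest p-values were those of Mrpl15, whose response was smaller in Elf4-/- by a log2 difference of -0.58 ± 0.26 (edgeR adjusted p = 0.495), Mrps5 at 0.59 ± 0.26 (edgeR adjusted p = 0.497) and Mrps15 at 0.63 ± 0.29 (edgeR adjusted p = 0.508). These p-values do not show that the genotypes responded alike.

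In WT, 9 of 48 large subunit members were higher (18.8%) and 4 lower (8.33%) with EtOH. Of 29 small subunit members, 5 were higher (17.2%) and 3 lower (10.3%), beside 10.8% of all genes in each direction. The median log2 fold changes of the large and the small subunit were 0.14 and 0.12. Leaving out 1 library moved the difference of these medians from 0.016 to as low as -0.13, so its sign rested on single libraries. In Elf4-/- the medians were 0.15 and 0.13. Between genotypes under EtOH they were 0.04 and 0.16, and under Control 0.02 and 0.02. Within each library, the mean centred log2 CPM of the large subunit minus that of the small subunit lay between -0.06 and 0.08, where the pooled SD between libraries of a group was 0.04. Sorted by structure, with Mrps30 and Mrps18a in the large subunit and Mrps36 left out, the WT medians were 0.14 for 50 and 0.07 for 26 members. By the class assigned to each member, 8 of 46 with bacterial counterparts rose (17.4%) and 5 fell (10.9%) in WT, with a median of 0.04. Of 30 classed as mitochondria-specific, 6 rose (20%) and 2 fell (6.67%), with a median of 0.15. Mrps18a and Mrps18b were put in the latter class and Mrps18c in the former, and the split rests on such assignments. The 10 mitochondria-specific members of the small subunit held 3 rises (Mrps18b, Mrps23 and Mrps34) and 0 falls, whereas its 16 members with bacterial counterparts held 1 rise (Mrps12) and 3 falls (Mrps5, Mrps15 and Mrps28). In the large subunit by structure the split was not repeated. Its 30 members with bacterial counterparts held 7 rises and 2 falls, and its 20 mitochondria-specific members 3 rises and 2 falls. Over all genes tested, 10.8% were called higher and 10.8% lower in WT, and the falls of members with bacterial counterparts lay near that share. These counts are a description of small lists, and differences between the lists were not tested.

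**Figure D4:**
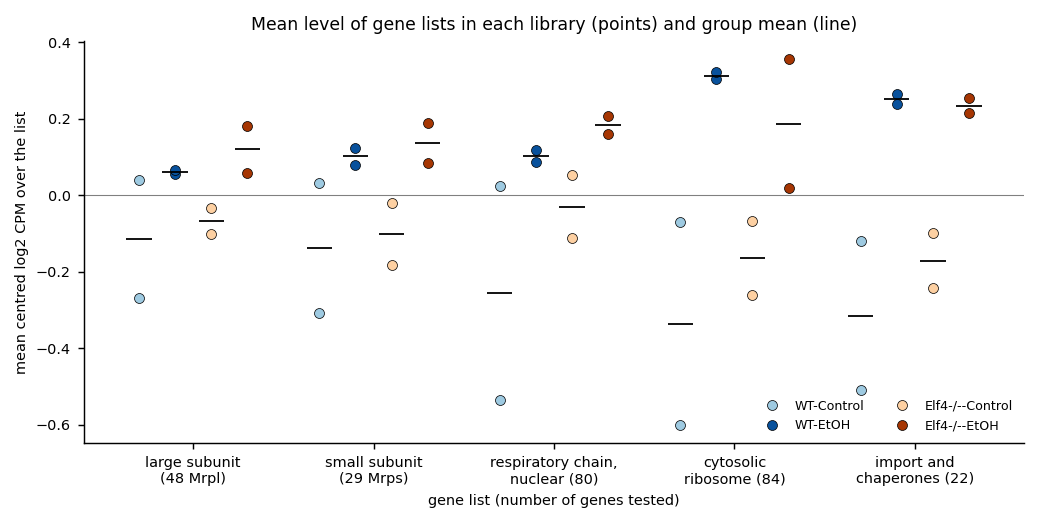
Mean centred log2 CPM of 5 gene lists (x axis, with the number of genes tested) in each library (points) and group means (lines). The large and small subunit lists follow each other closely, WT-Control replicate 1 is the lowest library in all 5 lists, and the EtOH libraries stand highest above the Control libraries for the cytosolic ribosome and for import.

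Averaged over all members, the mean centred log2 CPM was -0.28 and 0.04 (WT-Control), 0.06 and 0.09 (WT-EtOH), -0.13 and -0.03 (Elf4-/--Control), and 0.07 and 0.18 (Elf4-/--EtOH). The WT groups therefore differed by 0.20 where the libraries of WT-Control alone were 0.32 apart. The summed level of the members was 2225 and 2623 CPM in WT-Control and 2417 and 2587 CPM in WT-EtOH, which overlap. It was 2258 and 2457 CPM in Elf4-/--Control and 2511 and 2649 CPM in Elf4-/--EtOH, which do not overlap.

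Genes that work with the mitochondrial ribosome were read from lists. Calls in all lists below stand beside 10.8% of all genes called higher and 10.8% lower in WT. In Elf4-/- these shares were 1.71% and 1.18%. Its own ribosomal RNAs were not called in WT, with mt-Rnr1 at 0.08 ± 0.33 (edgeR adjusted p = 0.892) and mt-Rnr2 at -0.73 ± 0.35 (edgeR adjusted p = 0.160). Of 24 tested genes of the mitochondrial genome, 16 fell in WT (median -1.89) and 0 were called in Elf4-/- (median 0.11), among them mt-Co1, a subunit of cytochrome oxidase, which fell by 1.90 ± 0.44 in WT (edgeR adjusted p = 0.0158). Ribosomal proteins with other symbols held 1 rise among 5, Chchd1 of the small subunit, with a log2 fold change of 1.69 ± 0.25 (edgeR adjusted p = 0.00282). Of 13 translation factors, the elongation factors Tufm (1.85 ± 0.35, edgeR adjusted p = 0.00710) and Gfm1 (0.98 ± 0.25, edgeR adjusted p = 0.0233) rose and the initiation factor Mtif2 fell by 1.06 ± 0.23 (edgeR adjusted p = 0.0127).

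Of 19 ribosome assembly genes tested, 9 lay above 0 and 10 below in WT. Among them the helicase gene Ddx28 rose (1.32 ± 0.35, edgeR adjusted p = 0.0260), and 5 fell by 0.75 to 1.03, the largest falls being those of Mterf4, Mettl17, Eral1 and Mterf3; Ddx28 was also called in Elf4-/- (1.60, edgeR adjusted p = 0.0429). Of 20 aminoacyl-tRNA synthesis genes Iars2 rose and Cars2 fell in WT, and Gatb rose in Elf4-/-, and of 16 transcription and RNA processing genes Trmt10c rose in WT. Among 12 regulators of mitochondrial biogenesis, the coactivators Ppargc1a and Ppargc1b fell by 1.33 ± 0.37 and 1.57 ± 0.36 (edgeR adjusted p = 0.0304 and 0.0158), the nuclear receptor Esrra fell by 1.13 ± 0.22 (edgeR adjusted p = 0.00794), and Myc rose by 2.96 ± 0.43 (edgeR adjusted p = 0.00295).

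Import genes and cytosolic ribosomal proteins were called in WT in the upward direction alone, where 10.8% of all genes were called higher and 10.8% lower. In WT, 6 of 22 import and chaperone genes rose and 0 fell (median 0.52), among them Hspe1, Tomm20 and Hspd1, which were also called in Elf4-/-. Of 84 cytosolic ribosomal protein genes, 31 rose and 0 fell in WT (median 0.63), and 2 rose in Elf4-/- (median 0.37). Of 80 nuclear genes of the respiratory chain, 20 rose (25%) and 4 fell (5%) in WT (median 0.21). Calls thus went in both directions, beside 18.2% and 9.09% of the members. The difference between these lists and the members was not tested. Without WT-Control replicate 1, an alternative added after the data were seen, the calls in WT were 4 higher for import, 7 higher for cytosolic ribosomal proteins, 12 higher and 4 lower for the respiratory chain (median -0.05) and 10 lower for the mitochondrial genome. In that setting 1 assembly gene (Mettl17, lower), 1 translation factor (Tufm, higher), Chchd1, Iars2, Myc and Esrra were still called among the smaller lists. Without WT-EtOH replicate 2, 1 gene of the mitochondrial genome (mt-Co2, lower) and 5 cytosolic ribosomal proteins were called.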

How the data were processed

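Liver RNA-seq counts of 8 libraries in 4 groups were used. The authors mapped paired-end reads to mm10 with HISAT2, sorted them with SAMtools, counted reads per gene with HTSeq and tested them with DESeq2; versions and the strand setting are not given in the sources used here. The deposited values are whole-number counts per gene symbol, not normalized; all per-sample columns were used, and library totals were 6171051 to 9157362. Intervals and p-values cover no PCR duplication.

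Symbols were matched to GENCODE M21 (GRCm38), which gave 98.7% of the table a position. All 8 libraries entered 1 edgeR 4.0.16 model (R 4.3.3) after filterByExpr and TMM scaling, which left 13993 genes, and each contrast was tested by quasi-likelihood with Benjamini-Hochberg adjustment over all genes at 0.05. The biological coefficient of variation was 22.7%. The script was tested on simulated data. CPM are counts relative to the TMM-scaled library size; log2 CPM used a prior count of 2, and a list's mean centred level is the mean over its genes of log2 CPM minus the gene's mean. Members and lists were chosen with earlier results of these data known. Values are given for the members with the largest called changes in each diet contrast (at most 8 in each direction), the 3 with the smallest p in each other contrast, the 3 highest and lowest per kilobase, members of a special role, and those next to the count minimum; Mrps11 and Tcp1, as overlapping genes, and the other members in the text were named after their values were seen. Genes of other lists are named where called in a diet contrast, at most 5 a list; mt-Co1, mt-Rnr1 and mt-Rnr2 were named after their values were seen, and leaving out WT libraries was added for those lists. Alternatives were DESeq2 1.42.0, other scalings, no filter, the 4 libraries of a contrast, a replicate block, a GC and length offset, leaving out each library, and subunits by structure. Replicates correlated by -0.13 to 0.11 across groups with the same number, so the numbers were not taken as pairs.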

Additional observations from a re-analysis of the deposited data

How the results depend on the processing

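Depth limited the members with few counts, and with 2 libraries a group most calls rested on few libraries. DESeq2's size factors changed no count of called members by over 1.5 times. Subunits sorted by structure moved the large minus small median in WT to 0.071. Scaled by library totals, 27 members were higher and 1 (Mrpl18) lower in WT with a median of 0.57, 0 were higher in Elf4-/-, and the medians became -0.10 between genotypes under EtOH, 0.25 under Control and -0.41 for the interaction; Mrpl10, Mrps11 and Mrps36 changed sign in WT, to 0.37, 0.27 and 0.24. Library totals without mitochondrial genes gave 3 lower in WT and 0 higher in Elf4-/-, and Mrpl10 at 0.067. No filter gave 3 lower in WT and 0 higher in Elf4-/-, and DESeq2's Wald test 3 lower in WT. The GC and length offset gave a WT median of -0.00564, a large minus small interaction of -0.015 and 0 higher in Elf4-/-. The 4 libraries of the contrast alone gave 0 higher in Elf4-/-. The cause of these changes was not tested. Same-numbered libraries did not pair; the replicate block gave 13 higher and 6 lower in WT and 0 higher in Elf4-/-.

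When each library was left out in turn, calls in WT ran from 3 to 16 higher and 0 to 7 lower, the WT median from -0.066 to 0.25, and the calls in Elf4-/- from 0 to 4 higher and 0 to 2 lower. In WT the share of all genes called ran from 4.28% (without WT-EtOH replicate 2) to 27.3% (without Elf4-/--EtOH replicate 2). The members called in these settings were 3 and 23. The median under Control between genotypes ran from -0.12 to 0.21. The large minus small median ran from -0.13 to 0.016 in WT, -0.087 to 0.10 in Elf4-/-, -0.12 to 0.047 between genotypes under EtOH, -0.14 to 0.027 under Control and -0.041 to 0.052 for the interaction. Members not called changed sign: in WT Mrpl10 (-0.19 to 0.080), Mrpl58 (-0.076 to 0.53) and Mrps36 (-0.44 to 0.13), and in Elf4-/- Mrps15 (-0.23 to 0.064) and Mrps5 (-0.18 to 0.019).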
